A study of Mus musculus with 12 samples.

Results

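Most of the genes described here encode factors that start and lengthen polypeptide chains on the cytosolic ribosome of the mouse heart. Others encode proteins that act on these factors, such as kinases, binding proteins and methyltransferases. Members were all gene symbols beginning with Eif1 to Eif5, Eef1 or Eef2, without pseudogene symbols and without Eif4ebp1 and Eif2ak2. Genes that the deposited annotation places in the spliceosome or ribosome biogenesis pathways were also left out. This rule used names and annotation only, no measured value, and took 66 of the 55885 genes in the table. Of these, 62 passed the filter of 1 TPM (a transcript abundance scaled for length and library) or more in at least 3 hearts and were tested among 13815 genes. The 12 hearts came from male C57BL/6J mice aged 8 weeks and formed 4 groups of 3. Saline mice were wild type and received saline according to the study's methods, although their sample labels call them untreated. CDDP mice were wild type and received cisplatin (CDDP), a platinum drug that crosslinks DNA, at 6 mg/kg by intraperitoneal injection on days 1, 8 and 15. STING-/- mice carried a deletion of the gene for the innate immune adaptor STING and received no CDDP. STING-/-+CDDP mice had the same deletion and the same 3 injections. Hearts were collected on day 22. The design text of the series gives more animals per group than were sequenced, the wild-type and STING-/- animals came from different suppliers, and nothing in the sources used here says that they were littermates.

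In background, initiation begins when eIF2 carries the initiator tRNA to the small ribosomal subunit, where eIF1, eIF1A, eIF3 and eIF5 assemble with it. The cap-binding protein eIF4E, the scaffold eIF4G and the helicase eIF4A bring the mRNA, the complex scans to the start codon, and eIF5B joins the large subunit. eIF2 is then recharged with GTP by eIF2B. During elongation eEF1A delivers aminoacyl-tRNA and eEF2 moves the ribosome along the mRNA. Adult heart and skeletal muscle are known for another form of eEF1A, encoded by Eef1a2, beside the widely expressed Eef1a1.

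TPM sums to the same total in every heart, so a change is a change in share, and the read depth behind a value is unknown. Levels of cell type markers differed between hearts. The summed TPM of 5 atrial cardiomyocyte markers ran from 310.2 to 39132 in Saline, from 858 to 14625 in CDDP, from 3026 to 12853 in STING-/- and from 331 to 9025 in STING-/-+CDDP hearts, and was highest in Saline 2 and CDDP 3. Erythroid markers summed to between 4146 and 9317 in Saline and between 41.9 and 1271 in CDDP hearts. They were also below every Saline heart in STING-/- hearts without CDDP (264 to 1466) and in STING-/-+CDDP hearts (81.9 to 311). All 6 cardiomyocyte markers were expressed in every heart, and 5 neuronal markers summed to at most 2.1. Neutrophil markers summed to 1117 in CDDP 1 and to at most 84.3 elsewhere. Macrophage and endothelial marker sums were lower in every CDDP heart (71.2 to 167 and 375 to 492) than in every Saline heart (258 to 359 and 589 to 694). The same held for the sums of skeletal muscle markers (802 to 920.1 against 1252 to 1385) and fat markers (482 to 694 against 918 to 1839). Single fat markers did not all follow their sum, since of 4 tested 3 had a log2 fold change above 0 and 1 was called lower. Of the 6 skeletal muscle markers only 3 were tested, with 0 above 0 and 1 called lower. In STING-/- hearts without CDDP, endothelial sums (384 to 550) were also below every Saline heart. Macrophage (253 to 379), skeletal muscle (1261 to 1452) and fat sums (797 to 1382) there overlapped those of Saline. Macrophage sums were lower in every STING-/-+CDDP heart than in every STING-/- heart, and 1 of the 6 markers was called lower. Fibroblast sums overlapped between Saline (718 to 1763) and CDDP hearts (977 to 2084). Single fibroblast markers did not all follow these sums. Of 6 tested with CDDP in wild type, 3 were called lower and 1 had a log2 fold change above 0 (median -1.067). The part of macrophages, fibroblasts and of endothelial, skeletal muscle, fat and erythroid cells in the results was not tested. Of the 6 cardiomyocyte markers, 1 was called higher and 1 lower with CDDP, and 1 had a log2 fold change above 0. Actc1, cardiac alpha-actin, was at 7824, 5559 and 5036 TPM in Saline and at 187, 681 and 1067 TPM in CDDP hearts. Tnnt2 went the other way, from 6198, 6781 and 6128 TPM in Saline to 7578, 10485 and 10439 TPM in CDDP hearts. TPM of Sting1, the deleted gene, was 12.3, 6.59 and 6.50 in Saline, 22.1, 5.62 and 8.81 in CDDP, 3.82, 5.96 and 2.87 in STING-/- and 4.26, 4.67 and 3.37 in STING-/-+CDDP hearts. It was lower in the STING-/- groups but not at 0, and STING-/- 2 lay above CDDP 2. Which exons the deletion removes was not given in the sources used here. In whole hearts, fewer cells of a type and less RNA per cell cannot be told apart.

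The family made up 0.581% to 0.813% of all TPM in Saline hearts, 0.896% to 1.15% in CDDP hearts, 0.602% to 0.720% in STING-/- hearts and 0.664% to 0.817% in STING-/-+CDDP hearts. Every CDDP heart held a larger share than every heart of the Saline and STING-/- groups. Levels in TPM are per transcript length, so genes can be ranked. Eef1a1 led with a mean of 1959 TPM over the 12 hearts, followed by Eef2 (902 TPM), Eef1a2 (618 TPM), Eif1 (522 TPM) and Eif5a (312 TPM). Eif4a2, Eif3h, Eef1d, Eif4g2 and Eef1b2 came next, with means between 204 and 288 TPM, and the ranges of neighbours in this order overlapped. The 7 genes Eef1a1, Eef1a2, Eef1b2, Eef1d, Eef1e1, Eef1g and Eef2 took 49.3% to 56.9% of the family's TPM in every heart. The 14 eIF3 subunits took 13.2% to 16.3% and the 5 eIF2B subunits 1.37% to 2.04%. The eIF2 kinases Eif2ak1, Eif2ak3 and Eif2ak4 together took 0.170% to 0.280%.

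Of the 66 members, 4 did not pass the filter and were not tested. Eif4e1b, a cap-binding form known from oocytes, was listed at 0 in all 12 hearts. Eif2c5, annotated as a long noncoding RNA, was above 0 in 1 heart, at 0.08 TPM. Eef1akmt3, which methylates eEF1A, reached at most 0.10 TPM. Eif4ebp3, an inhibitor of eIF4E, ranged from 0 to 2.38 TPM and shares 504 identical bases with the overlapping read-through gene Maskbp3, which was at a mean of 4.38 TPM, so its level is uncertain.

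A large part of the family was higher in wild-type hearts after CDDP. The comparison of CDDP with Saline asks how the drug changes the myocardial transcriptome. Of 62 tested members, 27 passed the threshold (limma, Benjamini-Hochberg adjusted p under 0.05), where 18.9% of all tested genes did. Of these, 25 were higher, or 40.3% of members, against 8.52% of all tested genes, and 2 were lower, or 3.23%, against 10.4%. Every CDDP heart lay above every Saline heart in all 25 of the higher genes, but these were called on the same hearts, so this is no separate support. Over all 62 members, 35 had groups that did not overlap with CDDP higher (14.9% of all tested genes) and 3 with CDDP lower (17.1%). The median log2 fold change was 0.386 for the members and -0.003 for all tested genes. Among the 25, the ratio of mean TPM in CDDP to Saline ran from 1.36 to 3.21 with a median of 1.63. The 12 largest rises and both falls were named by rule, and the remaining rises are named after their values were seen, so that all 27 are given.

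**Figure D1:**
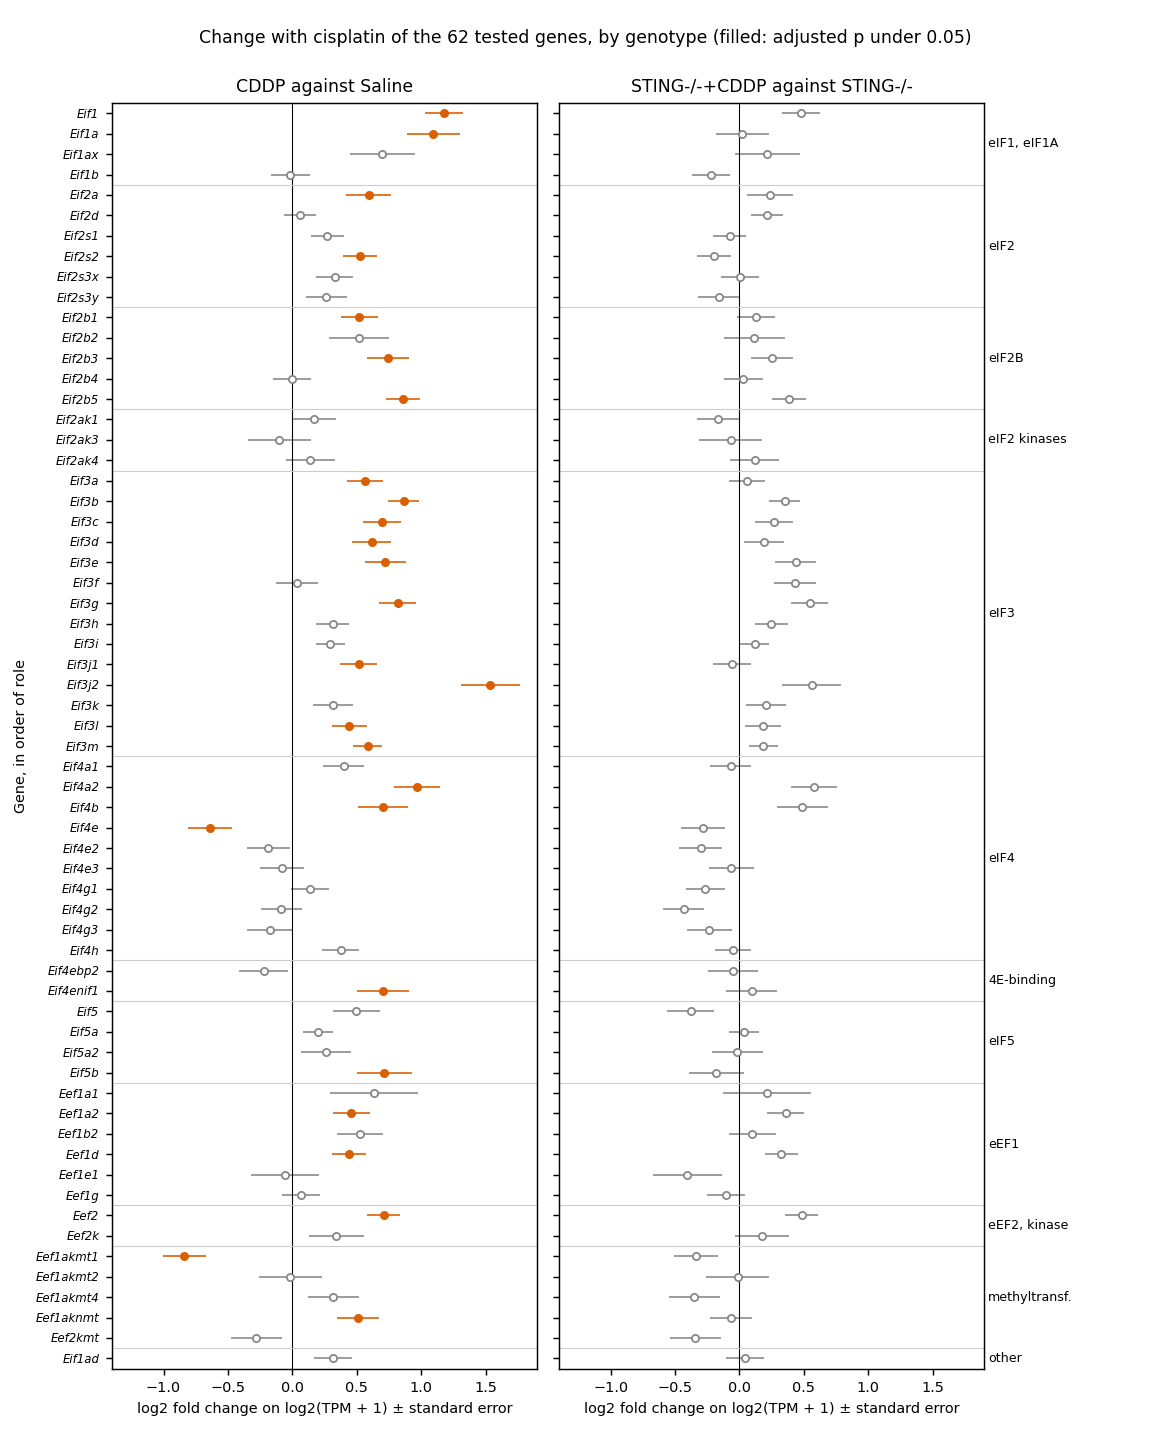
Log2 fold change with CDDP of the 62 tested genes, in order of role, in wild-type hearts (left) and in STING-/- hearts (right); points are limma estimates on log2(TPM + 1), bars are standard errors, and filled points passed an adjusted p of 0.05. On the left 25 filled points lie above 0 and 2 below, and on the right no point is filled.

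Of the 4 scanning factor genes, 2 rose. Eif1 (chr11:100319885-100322096, plus strand, GRCm38), which keeps the scanning ribosome open until the start codon is found, was at 317, 451 and 362 TPM in Saline, 767, 829.5 and 940.1 TPM in CDDP, 319, 408 and 358 TPM in STING-/- and 533, 486 and 488 TPM in STING-/-+CDDP hearts. The CDDP hearts stood above the other 9, and the STING-/-+CDDP hearts stood above all hearts without CDDP. Its log2 fold change between CDDP and Saline was 1.18 ± 0.15 (SE, limma adjusted p = 0.000869), from a mean of 376 ± 68.5 TPM to 846 ± 87.7 TPM (SD, n = 3 each). Near-identical copies of Eif1 are annotated in 15 genes, led by a stretch within Emd, and their summed mean TPM was 5.77% of that of Eif1.

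Eif1a encodes eIF1A, which occupies the decoding site during scanning, and was at 6.85, 9.25 and 6.61 TPM in Saline and 19.3, 13.1 and 19.8 TPM in CDDP hearts. All CDDP hearts were higher, with a log2 fold change of 1.09 ± 0.20 (SE, limma adjusted p = 0.00505). In STING-/- hearts its values were 8.17, 10.6 and 8.28 TPM without and 10.8, 9.36 and 7.45 TPM with CDDP, and these overlapped. Its X-linked counterpart Eif1ax had a log2 fold change of 0.70 ± 0.25 (SE) and missed the threshold (limma adjusted p = 0.0762). Eif1b, a close relative of Eif1, differed by less than the spread between hearts, at 52.2 ± 10.6 TPM in Saline and 51.2 ± 4.07 TPM in CDDP hearts (SD, n = 3 each).

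eIF3, the largest initiation factor, holds the small subunit apart from the large one and recruits the mRNA. Of its 14 subunit genes 10 passed the threshold, all higher with CDDP, and the median log2 fold change of the 14 was 0.574. Eif3b (chr5:140419328-140443360, plus strand), a core subunit that scaffolds the complex, was at 50.01, 54.5 and 48.3 TPM in Saline and 92.4, 86.5 and 102 TPM in CDDP hearts. The groups lay well apart, with a log2 fold change of 0.86 ± 0.12 (SE, limma adjusted p = 0.00137). The RNA-binding subunit gene Eif3g went from 74.8, 84.4 and 64.7 TPM to 113, 135 and 149 TPM, a log2 fold change of 0.82 ± 0.14 (SE, limma adjusted p = 0.003496). Eif3e went from 75.02 ± 10.99 TPM to 125 ± 21.9 TPM (SD, n = 3 each), with a log2 fold change of 0.72 ± 0.16 (SE, limma adjusted p = 0.0111). In CDDP 3, where Eif3e was highest at 149 TPM, the summed atrial markers were also the highest of that group. With the atrial marker level of each heart as a covariate, Eif3e remained called, with a log2 fold change of 0.64 (limma adjusted p = 0.01165).

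Log2 fold changes of the other subunit genes called were 0.70 for Eif3c, 0.61 for Eif3d, 0.58 for Eif3m, 0.56 for Eif3a and 0.44 for Eif3l, with limma adjusted p between 0.00573 and 0.0439. Those not called were Eif3h at 0.31, Eif3k at 0.31, Eif3i at 0.29 and Eif3f at 0.04. CDDP and Saline hearts did not overlap in Eif3h, Eif3k and Eif3i, and overlapped in Eif3f.

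Eif3j2 had the largest log2 fold change of the family, 1.54 ± 0.23 (SE, limma adjusted p = 0.00181). It is annotated as a single stretch of 2379 exonic bases and matches Eif3j1, which encodes the loosely bound j subunit, at 99.4% identity over 2379 bases. TPM of Eif3j2 was 7.11, 4.72 and 4.44 in Saline and 19.5, 16.5 and 16.1 in CDDP hearts. TPM of Eif3j1 was 11.6, 13.7 and 12.02 in Saline and 16.7, 16.9 and 21.2 in CDDP hearts, with a log2 fold change of 0.52 ± 0.15 (SE, limma adjusted p = 0.0307). Both rose, but how their shared reads were divided between them is uncertain, and so is the size of each change.

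**Figure D2:**
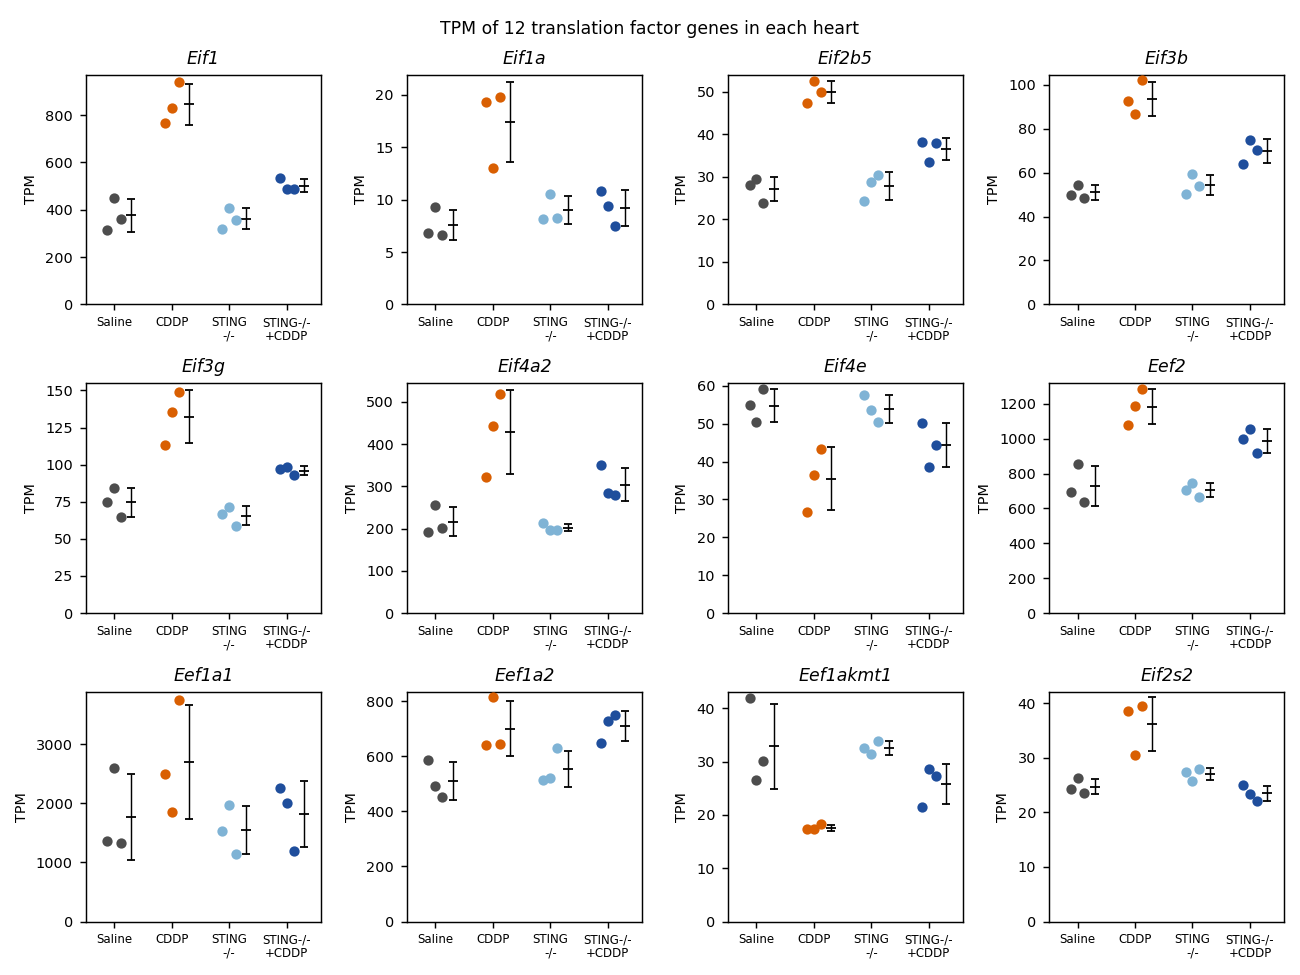
TPM of 12 translation factor genes in each heart by group; points are hearts and bars are the mean ± SD of 3 hearts, with each axis starting at 0. All 3 CDDP hearts lie above all 3 Saline hearts in Eif1, Eif1a, Eif2b5, Eif3b, Eif3g, Eif4a2, Eef2, Eef1a2 and Eif2s2 and below them in Eif4e and Eef1akmt1, while the groups overlap in Eef1a1.

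Of the 5 subunits of eIF2B, the exchange factor that recharges eIF2, 3 rose. Eif2b5 (chr16:20498817-20509323, plus strand), the catalytic epsilon subunit, was at 28.1, 29.4 and 23.9 TPM in Saline and 47.4, 52.6 and 49.99 TPM in CDDP hearts. The groups lay far apart, with a log2 fold change of 0.86 ± 0.13 (SE, limma adjusted p = 0.00216). Eif2b3, the gamma subunit that partners epsilon, went from 9.16, 8.24 and 7.23 TPM to 14.4, 14.3 and 14.3 TPM, with a log2 fold change of 0.74 ± 0.16 (SE, limma adjusted p = 0.0106). Eif2b1, the regulatory alpha subunit, had a log2 fold change of 0.52 ± 0.15 (SE, limma adjusted p = 0.0302). The other regulatory subunits were not called, Eif2b2 at a log2 fold change of 0.52 and Eif2b4 at 0.00.

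Of the 4 genes of the eIF2 trimer 1 rose. Its beta subunit gene Eif2s2 went from 24.4, 26.3 and 23.5 TPM to 38.6, 30.5 and 39.5 TPM, with a log2 fold change of 0.52 ± 0.13 (SE, limma adjusted p = 0.0184). Its alpha subunit gene Eif2s1, whose product the eIF2 kinases phosphorylate, had a log2 fold change of 0.27 and its gamma subunit genes Eif2s3x and Eif2s3y had 0.33 and 0.26, none called. Eif2a, an alternative initiator tRNA carrier outside the trimer, rose by 0.59 ± 0.18 on the log2 scale (SE, limma adjusted p = 0.0373), and Eif2d was not called at 0.06.

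None of the 3 tested eIF2 kinases passed the threshold by limma, and none had an unadjusted p under 0.05. Eif2ak1, activated by lack of heme, was at 9.71 ± 1.24 TPM in Saline and 11.1 ± 1.895 TPM in CDDP hearts. Eif2ak3, the kinase PERK of the endoplasmic reticulum, was at 4.43 ± 1.02 TPM and 4.06 ± 1.03 TPM. Eif2ak4, the amino acid sensor GCN2, was at 2.43 ± 0.474 TPM and 2.77 ± 0.24 TPM (SD, n = 3 each).

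Among eIF4 genes the directions differed. Eif4a2 (chr16:23107444-23114136, plus strand), an RNA helicase that unwinds the 5′ leader of the mRNA, was at 192, 256 and 201 TPM in Saline and 323, 442 and 519 TPM in CDDP hearts. The lowest CDDP heart exceeded the highest Saline heart, and the log2 fold change was 0.97 ± 0.18 (SE, limma adjusted p = 0.00462). Its cofactor Eif4b had a log2 fold change of 0.70 ± 0.20 (SE, limma adjusted p = 0.0301). Eif4e (chr3:138526179-138559696, plus strand), the cap-binding protein itself, fell from 54.9, 50.5 and 59.1 TPM in Saline to 26.7, 36.4 and 43.3 TPM in CDDP hearts. That log2 fold change was -0.64 ± 0.17 (SE, limma adjusted p = 0.0254), and without Saline 1, Saline 3 or CDDP 1 it no longer passed. The scaffold genes were not called, with log2 fold changes of 0.14 for Eif4g1, -0.09 for Eif4g2 and -0.18 for Eif4g3. Eif4enif1, which carries eIF4E into the nucleus, rose by 0.70 ± 0.20 (SE, limma adjusted p = 0.0307), while the inhibitor gene Eif4ebp2 was not called at -0.22.

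At the joining step, Eif5b rose from 12.2, 13.1 and 7.89 TPM to 18.6, 15.1 and 22.1 TPM, with a log2 fold change of 0.71 ± 0.21 (SE, limma adjusted p = 0.0385). It overlaps Rev1 on the opposite strand over 1643 exonic bases, and whether counting used strand is not stated, so reads there cannot be told apart. Smaller opposite-strand overlaps touch Eif4a2 (Rfc4, 194 bases), Eif3m (Ccdc73, 82 bases), Eif2a (Serp1, 72 bases) and Eif3j1 (Spg11, 1107 bases), with mean TPM of the partners between 3.50 and 13.2. Eef1d shares 277 exonic bases with Naprt on its own strand. Eif5, the GTPase-activating protein of eIF2, had a log2 fold change of 0.50 (limma adjusted p = 0.0787) and was not called. Eif5a, an abundant factor that helps ribosomes through difficult peptide bonds, was not called at 0.20.

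Elongation factors were the most abundant members that rose. Eef2 (chr10:81176631-81182498, plus strand), the translocase, was at 693, 858 and 636 TPM in Saline and 1080.0, 1191 and 1283 TPM in CDDP hearts. No CDDP heart fell within the Saline range, and the log2 fold change was 0.71 ± 0.13 (SE, limma adjusted p = 0.00436). Its inhibitory kinase Eef2k was not called at 0.34. Eef1a2 rose from 586, 491 and 451 TPM to 641, 815 and 643 TPM, a log2 fold change of 0.46 ± 0.14 (SE, limma adjusted p = 0.0452). Eef1a1, the most abundant member, was at 1357, 2603 and 1327 TPM in Saline and 2505, 1859 and 3758 TPM in CDDP hearts. These overlapped, and its log2 fold change of 0.63 ± 0.34 (SE) was not called (limma adjusted p = 0.218). Its highest values within each of these groups, Saline 2 and CDDP 3, were in the hearts with the highest summed atrial markers. With the atrial level as a covariate its log2 fold change was 0.37 ± 0.24 (SE, limma adjusted p = 0.2835). Of the exchange factors that recharge eEF1A, Eef1d rose by 0.44 ± 0.13 (SE, limma adjusted p = 0.0379), Eef1b2 missed the threshold at 0.52 (limma adjusted p = 0.0645), and Eef1g was at 0.07.

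The largest fall of the family was in a methyltransferase. Eef1akmt1 (chr14:57549597-57571612, minus strand), which methylates a lysine of eEF1A, was at 41.9, 26.6 and 30.1 TPM in Saline and 17.3, 17.3 and 18.3 TPM in CDDP hearts. The CDDP hearts lay within a narrow range below every Saline heart, and the log2 fold change was -0.84 ± 0.17 (SE, limma adjusted p = 0.00741). Eef1aknmt, another methyltransferase of eEF1A, rose by 0.51 ± 0.16 on the log2 scale (SE, limma adjusted p = 0.0484) at a mean of 3.08 ± 0.50 TPM in CDDP hearts (SD, n = 3). Eef1akmt2, Eef1akmt4 and Eef2kmt were not called, with log2 fold changes of -0.02, 0.32 and -0.28.

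How many members passed depended on which hearts were fitted. The shares of all tested genes that passed in these alternative fits are not given here. With only the 6 wild-type hearts, 9 passed, namely Eef2, Eif1, Eif1a, Eif2b3, Eif2b5, Eif3b, Eif3g, Eif3j2 and Eif4a2. These 9 passed in all 25 alternative fits, of which 13 changed a setting and 12 left out a heart. Another 3, Eef1akmt1, Eif3c and Eif3m, made up the 12 members that passed without any single heart. Without Saline 1, Saline 3 or CDDP 3 the count was 14, 13 and 14, and each of those genes was among the 27. With the atrial marker level of each heart as a covariate 26 members were called, all among the 27, and Eef1aknmt was lost (limma adjusted p = 0.0593). That gene also passed in 0 of the 12 fits that left out a heart. Next fewest were Eef1a2, Eef1d and Eif3l, which each passed in 3 of these 12 fits, Eif5b in 4 and Eif2a in 5.

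**Figure D3:**
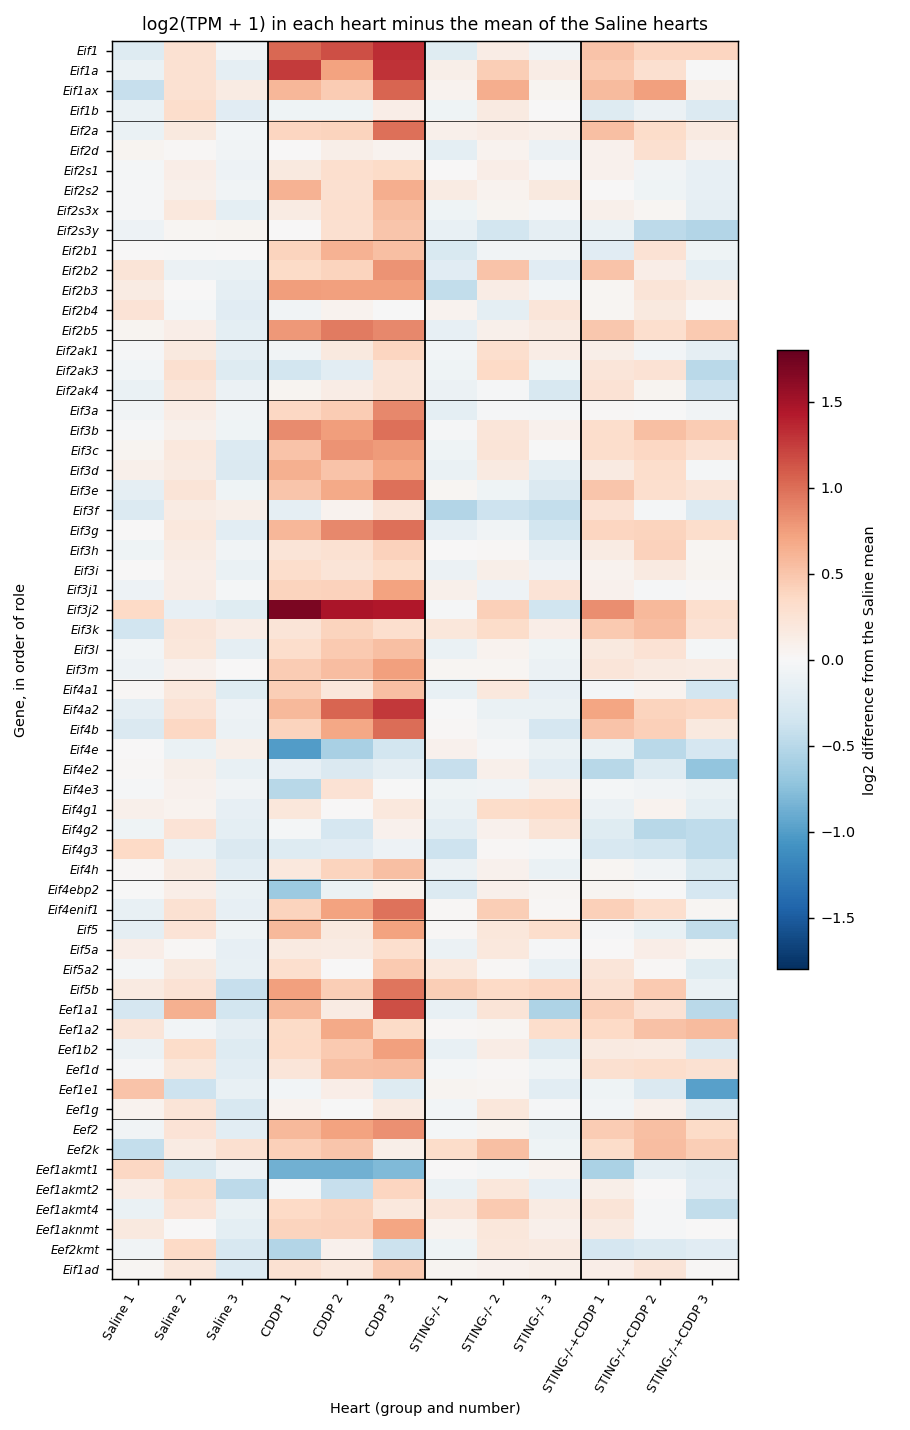
Each cell is log2(TPM + 1) of 1 gene in 1 heart minus the mean of the 3 Saline hearts, for the 62 tested genes in order of role (rows) and the 12 hearts by group (columns). The CDDP columns are red over most eIF3 rows and over Eif1, Eif1a and Eif4a2, blue in Eif4e and Eef1akmt1, and strongest in CDDP 3 for many genes.

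The comparison of STING-/- with Saline hearts gives the family without the drug. No member passed by limma, where 0.0724% of all tested genes did, and 1 had an unadjusted p under 0.05 (3.69% of all tested genes). The median log2 fold change of the members was 0.001, between -0.088 and 0.083 over the alternative fits (-0.070 without Saline 3 and 0.083 without Saline 2), and values of single members ran from -0.44 to 0.39. With a median SE of 0.161, small differences between the genotypes were not detectable.

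In STING-/- hearts no change with CDDP reached the threshold. STING-/-+CDDP against STING-/- gave no member past the threshold by limma (0.934% of all tested genes passed) and 13 at an unadjusted p under 0.05 (13.5%). Groups did not overlap in 16 members with STING-/-+CDDP higher (7.28% of all tested genes) and in 7 with it lower (16.9%). The median log2 fold change was 0.052 for the members and -0.107 for all tested genes. Median-of-ratios and quantile scaling brought the latter to between 0.007 and 0.015 and the former to at most 0.184. Largest were Eif4a2 at 0.58 ± 0.18, Eif3j2 at 0.56 ± 0.23, Eif3g at 0.55 ± 0.14, Eif4b at 0.49 ± 0.20, Eef2 at 0.48 ± 0.13 and Eif1 at 0.48 ± 0.15 (log2 fold change ± SE; limma adjusted p between 0.107 and 0.313). Eef2 was at 705, 749 and 666 TPM in STING-/- and 997, 1054 and 917 TPM in STING-/-+CDDP hearts, and Eif3g at 66.8, 71.3 and 58.8 TPM and 96.9, 98.2 and 92.7 TPM. In both genes every heart with CDDP was higher, although neither passed the threshold. Under median-of-ratios scaling 6 members passed, Eef2, Eif1, Eif3e, Eif3g, Eif4a2 and Eif4b, all higher. The share of all tested genes that passed under that scaling is not given here, so this count cannot be set against it.

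The changes with CDDP in wild-type and STING-/- hearts rest on different hearts and can be set side by side. Across the 62 members Pearson's r between these log2 fold changes was 0.679, and across all 13815 tested genes it was 0.512; genes are not independent replicates, and this is a description. Of the 25 genes higher with CDDP in wild type, 21 had a log2 fold change above 0 in STING-/- hearts, with a median of 0.252 there and 0.703 in wild type. For all 1177 tested genes higher with CDDP in wild type, 968 were above 0 in STING-/- hearts, with medians of 0.224 and 0.846.

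STING-/-+CDDP against CDDP asks whether loss of STING alters the treated heart. A single member passed, where 1.22% of all tested genes did. Eif1 was lower in STING-/-+CDDP hearts, by a log2 fold change of -0.75 ± 0.15 (SE, limma adjusted p = 0.04204), from 846 ± 87.7 TPM to 503 ± 26.5 TPM (SD, n = 3 each). This call was lost when any of 9 of the 12 hearts was left out, namely all except Saline 1, Saline 2 and CDDP 2. In all, 28 members had an unadjusted p under 0.05 (19.8% of all tested genes), and 29 members had groups that did not overlap with STING-/-+CDDP lower (15.6% of all tested genes). The members' median was -0.311 and that of all tested genes -0.095, and under other scalings the members' median rose to at most -0.178. Eif3j2 at -0.96 ± 0.23, Eif1a at -0.84 ± 0.20, Eif5 at -0.70 ± 0.18 and Eif2s3y at -0.63 ± 0.16 had the largest values that were not called (log2 fold change ± SE, limma adjusted p between 0.0629 and 0.0822). Eif5 is named here after its value was seen.

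Whether the effect of CDDP differed between genotypes was tested directly as an interaction. No member passed by limma, where 0.00724% of all tested genes did, and 13 had an unadjusted p under 0.05 (11.7%). The members' median interaction was -0.34 and that of all tested genes -0.101, and under other scalings they rose to at most -0.199 and 0.014. Eif1a had the most negative value, -1.07 ± 0.29 (SE, limma adjusted p = 0.308), and Eif1 had -0.70 ± 0.21 (SE, limma adjusted p = 0.321). A different response in the 2 genotypes was therefore not shown for any member, and these comparisons share the CDDP hearts with those above.

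Ratios of related genes within a heart do not depend on scaling between hearts. In all, 13 pairs were compared between hearts with and without CDDP by an exact permutation test of treatment within genotype, two-sided, for which 0.005 is the smallest p. Of these, 4 passed after adjustment over the 13 pairs. Eif4a2 relative to Eif4a1, the other helicase form, had log2 ratios of 0.504, 0.754 and 0.815 in Saline, 0.833, 1.54 and 1.42 in CDDP, 0.805, 0.383 and 0.716 in STING-/- and 1.43, 1.02 and 1.40 in STING-/-+CDDP hearts. Hearts with CDDP were higher in both genotypes, by 0.611 on average (exact p = 0.005, adjusted p = 0.0325).

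Eif1b relative to Eif1 moved the other way, by -0.946 (exact p = 0.005, adjusted p = 0.0325). Its log2 ratio was -2.83 ± 0.14 in Saline, -4.02 ± 0.06 in CDDP, -2.75 ± 0.06 in STING-/- and -3.45 ± 0.13 in STING-/-+CDDP hearts (SD, n = 3 each). Eif3j2 relative to Eif3j1 was higher by 0.819 (exact p = 0.010, adjusted p = 0.0433), with the uncertainty of their shared sequence. Eif4e3 relative to Eif4e was higher by 0.388 (exact p = 0.015, adjusted p = 0.0488). In wild type the Eif3j2 and Eif4e3 ratios rose by 1.021 and 0.557, and the groups did not overlap. In STING-/- hearts they rose by 0.617 and 0.219, and hearts with and without CDDP overlapped for both. Eif4e3, a cap-binding relative of Eif4e, was itself at 24.4 ± 1.22 TPM in Saline and 23.6 ± 6.22 TPM in CDDP hearts (SD, n = 3 each). Eef1a2 relative to Eef1a1 differed by -0.016 (exact p = 0.960), within a spread of 0.54 to 0.68 (SD) between hearts of a group. The count of pairs past the threshold fell to 0 without Saline 2 or Saline 3.

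**Figure D4:**
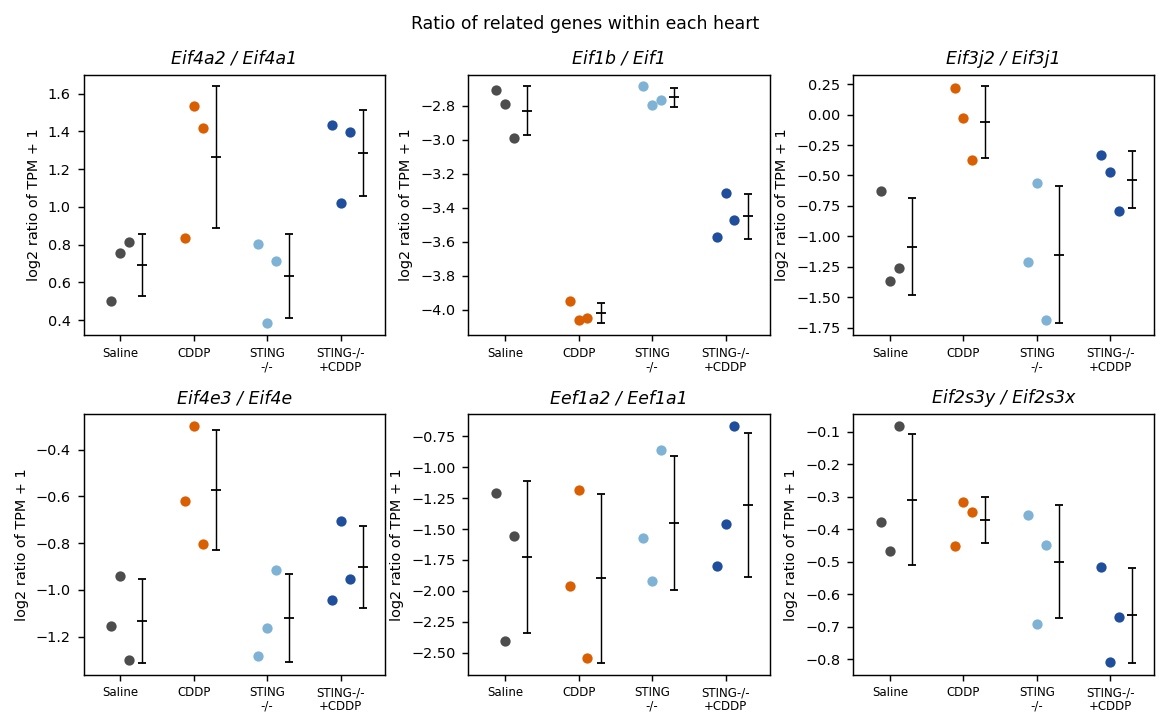
Log2 ratio of TPM + 1 of related genes within each heart for 6 of the 13 pairs; points are hearts and bars the mean ± SD of 3 hearts per group. Hearts with CDDP are higher in both genotypes for Eif4a2 / Eif4a1 and lower for Eif1b / Eif1, while Eef1a2 / Eef1a1 spreads widely in every group.

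Genes that work with these factors were examined in lists drawn up by function, whose counts are to be read against the 8.52% of all tested genes called higher and the 10.4% called lower with CDDP. Of 11 genes of the response to phosphorylated eIF2, 2 rose with CDDP. Atf4, the transcription factor that this response translates, was at 53.1, 81.2 and 58.4 TPM in Saline, 164, 93.5 and 155 TPM in CDDP and 62.6, 71.99 and 47.4 TPM in STING-/-+CDDP hearts. The log2 scale gave 1.07 ± 0.24 with CDDP in wild type (SE, limma adjusted p = 0.0117) and -1.15 ± 0.24 between STING-/-+CDDP and CDDP (SE, limma adjusted p = 0.0462). Ppp1r15a, a subunit of the phosphatase that reverses eIF2 phosphorylation, went from 20.9, 22.3 and 16.7 TPM in Saline to 46.4, 50.02 and 56.3 TPM in CDDP hearts (log2 fold change 1.31 ± 0.19, SE, limma adjusted p = 0.00159). In STING-/-+CDDP hearts it was at 24.9, 29.97 and 19.8 TPM, lower than with CDDP alone (log2 fold change -1.02 ± 0.19, SE, limma adjusted p = 0.0341). The other 9, among them Ddit3, Trib3, Chac1 and Asns, were not called in either comparison. In STING-/- hearts without CDDP, Atf4 was at 54.3, 64.2 and 49.5 TPM and Ppp1r15a at 15.8, 20.99 and 14.1 TPM. The interaction of CDDP and genotype was not called for Atf4 (limma adjusted p = 0.3658) or Ppp1r15a (limma adjusted p = 0.3605). A different response in the genotypes was therefore not shown for these genes. No protein or phosphorylation was measured here.

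In the mTORC1 branch, which controls eIF4E through its binding proteins, 3 of 18 genes rose and 2 fell with CDDP, the latter a share near that of all tested genes. Sesn2, an inhibitor of mTORC1, rose by 1.25, Mknk2, a kinase of eIF4E, by 1.16 and Rps6, a ribosomal protein, by 0.77. Rptor, the scaffold of mTORC1, changed by -0.97 and Rps6kb2 by -0.60 (log2 fold changes, limma). Of 24 termination, recycling and mRNA-binding factors 4 rose, with log2 fold changes of 0.85 for Paip2b, 0.61 for the eIF4E inhibitor Eif4ebp1, 0.56 for the release factor Etf1 and 0.52 for the recycling factor Abce1. The selenocysteine elongation factor Eefsec fell, at -0.74. The eIF2 kinase PKR, encoded by Eif2ak2, was in this list and was lower in STING-/-+CDDP than in STING-/- hearts (log2 fold change -1.33 ± 0.23, SE, limma adjusted p = 0.02396). In wild type it was at 6.97, 4.81 and 3.50 TPM in Saline and 2.84, 2.52 and 2.65 TPM in CDDP hearts. That fall just missed the threshold (log2 fold change -0.69, limma adjusted p = 0.0534), and the interaction was not called (limma adjusted p = 0.4645).

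Of 20 cytosolic aminoacyl-tRNA synthetases 5 rose with CDDP and none fell, with log2 fold changes of 0.85 for Qars, 0.80 for Eprs, 0.68 for Kars, 0.62 for Vars and 0.49 for Sars. Of 10 mitochondrial translation factors 3 fell and none rose, with Tsfm at -1.13, Mrrf at -0.62 and Tufm at -0.55 (log2 fold changes, limma), and the median of the list was -0.378. Tsfm and Tufm are the organelle's counterparts of the eEF1 exchange factor and of eEF1A. Tsfm was at 38.2, 31.1 and 31.2 TPM in Saline and 16.2, 14.5 and 13.6 TPM in CDDP hearts, which did not overlap. Of 87 tested cytosolic ribosomal protein genes, 47 rose with CDDP and none fell, with a median log2 fold change of 0.473.

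Promoter sequence was examined because so many members moved together. RefSeq promoters (250 bases before to 50 after the start, GRCm38.p6) were matched for 52 members by symbol and not for 14. The letters CCGGAAG, the core of sites known for ETS-family factors, were found on either strand in 17 of 52 member promoters (32.7%), in 19.5% of tested genes, in 9.93% of 27025 promoters and in 38.8% of ribosomal protein genes. They were in 30% of the 20 members that rose with CDDP and in 35.5% of the 31 tested members that did not. Among the 8 eIF3 subunit genes that rose and had a promoter, 5 held it, between 34 and 70 bases before the start, and neither of the 2 others with a promoter did. These matches are shown because they lie in genes of 1 complex that rose with CDDP. The distances are from the RefSeq start. By the gene coordinates of the annotation the matches in Eif3l and the nearer one in Eif3c lie inside the gene, and that in Eif3m lies on its start. They are printed 5′ to 3′ on the gene's strand with the motif, or its reverse complement CTTCCGG, in capitals and 10 bases on each side.
Eif3m, chr2:105017066-105017092, minus strand: tgtggctgacCCGGAAGcggttgtgcg
Eif3g, chr9:20898618-20898644, minus strand: ggccgcggcaCCGGAAGcctcttctac
Eif3c, chr7:126566418-126566444, minus strand: ttctttggtgCTTCCGGgaagtgacgc
Eif3c, chr7:126566384-126566410, minus strand: accttttcctCTTCCGGcgtcgtgcct
Eif3d, chr15:77970878-77970904, minus strand: ctgtgacacaCTTCCGGttgtgtctca
Eif3l, chr15:79075178-79075204, plus strand: ctgggcgggaCTTCCGGtccggccaag

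CACGTG, the palindromic E-box bound by factors such as MYC and USF, was in 14 of 52 member promoters (26.9%), in 11.8% of tested genes and in 8.09% of all promoters. It was in 15% of the members that rose with CDDP and in 35.5% of those that did not. Both the riser Eef2, 43 bases before the start, and Eif4e, which fell, 64 and 228 bases before the start, held it. These are shown as examples with opposite changes (for Eif4e the match nearest the start). The distances are again from the RefSeq start. By the gene coordinates of the annotation both matches in Eif4e lie inside the gene.
Eef2, chr10:81176578-81176603, plus strand: ccggcgccgtCACGTGacgcacccaa
Eif4e, chr3:138527194-138527219, plus strand: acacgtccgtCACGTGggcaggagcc
The cyclic AMP response letters TGACGTCA were in 1 member promoter, that of Eef2, and TGATGCAA, a core of sites for ATF4, in none of 52, against 2.03% and 1.03% of all promoters. A cytosine at the start followed by 4 pyrimidines was in 5.77% of member promoters, 3.01% of all promoters and 22.4% of ribosomal protein genes. It was in 0% of the 20 members that rose with CDDP and in 6.45% of the 31 tested members that did not. No matches of different motifs overlapped. A match is a description of letters in this window and not a binding site.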

How the data were processed

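RNA was sequenced from 12 mouse hearts. The authors deposited 1 table of TPM for 55885 genes, rounded to 2 decimals, and it served as is. The submitters' processing notes name fastp, HISAT, RSEM and GRCm38.p5, with roles and versions not given in the sources used here. No counts were used, so depth is unknown and no counting interval is given. Its 4 columns of group means were not used. Genes reaching TPM 1 in 3 or more hearts were tested on log2(TPM + 1) with limma 3.58.1 (R 4.3.3, eBayes with trend, all 12 hearts, 8 residual degrees of freedom, two-sided, Benjamini-Hochberg over 13815 genes, threshold 0.05). Fold changes on this scale understate those of low genes. Ratios of related genes were compared by an exact permutation test over 400 arrangements. The labels do not say more of how hearts of a group were obtained, so p-values measure the spread between these hearts.

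Named genes were the members called in a comparison (at most the 12 largest rises and falls), the 10 most abundant, the paired genes, the kinases, members under the filter and, of each other list, at most the 5 largest rises and falls called. The members and lists were chosen with earlier results of these data known. Copies were sought with blastn 2.17.0 (at least 200 bases and 95% identity). Alternatives changed the pseudocount, filter, scaling, samples, weights and covariates. Data were also simulated for the comparison of CDDP and Saline, with 200 of 13815 genes changed. The test called 87% of genes changed by 2 on the log2 scale and 19% of those changed by 0.7. Of its calls, 3.64% were false. In the measured comparison 2610 genes were called, so these shares need not hold for it.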

Additional observations from a re-analysis of the deposited data

Results flagged for a closer look

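Eif2s2, the beta subunit of eIF2, had fold changes of opposite sign with CDDP in the 2 genotypes, of which the one in wild type passed the threshold (log2 fold change 0.52, limma adjusted p = 0.0184) and the one in STING-/- hearts did not (-0.20, limma adjusted p = 0.555). All CDDP hearts (38.6, 30.5 and 39.5 TPM) lay above all Saline hearts (24.4, 26.3 and 23.5 TPM), and all STING-/-+CDDP hearts (24.9, 23.4 and 22.1 TPM) lay below all STING-/- hearts (27.4, 25.8 and 28.0 TPM). The interaction of CDDP and genotype was -0.722 on the log2 scale, and as a test of the difference it missed the threshold (limma adjusted p = 0.308).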

How the results depend on the processing

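No member or ratio past its threshold changed sign under any alternative. The median log2 fold change of the members for STING-/- against Saline, 0.001, did, ranging from -0.088 with the atrial covariate to 0.083 without Saline 2. For CDDP against Saline, 27 members passed, and 9 did when only the groups compared were fitted, 3 when a log2 fold change of 1 or more in size was also required, and between 13 and 26 without 1 heart each (14 without Saline 1, 13 without Saline 3, 14 without CDDP 3). For STING-/-+CDDP against CDDP, 1 member passed, and 0 did without a filter on low TPM, with only the groups compared, without the eBayes trend, and with the same limit of 1 on the log2 fold change. That count was 2 with a filter at TPM 5 or without mitochondrially encoded genes, 4 with quantile normalization, 7 with median-of-ratios scaling, and between 0 and 4 without 1 heart each. For STING-/-+CDDP against STING-/-, 0 passed, and 6 did with median-of-ratios scaling, 3 with quantile normalization, 2 without mitochondrially encoded genes and 4 with array weights. An atrial covariate, added after seeing the data, gave 4 and 2 members in these 2 comparisons. Pairs of related genes past the threshold were 4, and 0 to 4 without 1 heart each (0 without Saline 2 or Saline 3). The causes were not tested, and the shares of all tested genes that passed under these alternatives are not given here. Hearts with the same number did not deviate together (correlations from -0.333 to 0.261 over 18 pairs, against -0.312 to 0.431 over 36 pairs with different numbers). No pairing by number was seen, but with 3 hearts a group these correlations cannot exclude it. A replicate block gave 23 members for CDDP against Saline and 0 for STING-/-+CDDP against CDDP. Depth is unknown, and with 3 hearts a group and a median SE of 0.161 small changes could not be detected.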
